A study of Mus musculus with 2 samples.

Results

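The Hox clusters of back skin basal cells were described from accessible chromatin measured by ATAC-seq, an assay in which the Tn5 transposase cuts open DNA and tags it for sequencing. The 38 Hox genes considered lie in 4 clusters, HoxA, HoxB, HoxC and HoxD. A merged region of accessible chromatin was taken as a Hox region when the nearest protein-coding gene span was one of these genes, at most 20 kb away. This gave 93 of the 109257 merged regions, at 35 of the 38 genes. No level of accessibility was used to choose them.

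The 2 libraries came from CD1 mice, an outbred strain, and each library was made from 10000 sorted cells of 1 animal. The stretched library came from a mouse whose back skin had undergone force-mediated tissue expansion, and the control library from a mouse with no treatment. Cells of the interfollicular epidermis of the back were sorted for ITGA6, an integrin of basal keratinocytes, and against CD34, which marks stem cells of the hair follicle bulge. There were no replicates, so no test between the conditions was possible, and a difference between the libraries cannot be told apart from a difference between 2 outbred animals.

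Hox proteins are homeodomain transcription factors that give cells along the body axis their positional identity. Within a cluster the genes are numbered as paralogue groups from 1, at the anterior end, to 13, at the posterior end, and in embryos they are opened and expressed in that order. In adult skin, Hox patterns persist and are best known from fibroblasts of different body sites, while Hoxc13 is known for its part in hair and nail keratin gene expression. Polycomb proteins keep unused Hox genes silent, and PBX and MEIS proteins are the homeodomain partners with which HOX proteins bind DNA.

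The sequences below show how start sites of Hox genes differed in base content and in accessibility. They are RefSeq promoter windows on GRCm38.p6, from 250 bases before to 50 bases after the start, printed 5′ to 3′ on the strand of the gene, with CG dinucleotides in capitals. The Hoxa5 window, chr6:52204538-52204837 on the minus strand, carried 29 CG dinucleotides and lay under a region with 105 counts in the stretched library and 79 in the control library. The Hoxa13 window, chr6:52260831-52261130 on the minus strand, carried 45 CG dinucleotides and lay under no region. Hoxd11 has 2 windows on the plus strand. The outer one, chr2:74679308-74679607, carried 4 CG dinucleotides and lay under no region, whereas the inner one, chr2:74682073-74682372, carried 25 and lay wholly under a region with 57 counts in the stretched library and 42 in the control library.
Hoxa5: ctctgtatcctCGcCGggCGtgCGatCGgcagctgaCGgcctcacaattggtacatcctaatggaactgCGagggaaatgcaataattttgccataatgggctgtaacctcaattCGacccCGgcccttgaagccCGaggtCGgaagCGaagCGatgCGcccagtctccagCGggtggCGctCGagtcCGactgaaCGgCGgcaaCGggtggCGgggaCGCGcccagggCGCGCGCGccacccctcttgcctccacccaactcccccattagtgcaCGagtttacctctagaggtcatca
Hoxa13: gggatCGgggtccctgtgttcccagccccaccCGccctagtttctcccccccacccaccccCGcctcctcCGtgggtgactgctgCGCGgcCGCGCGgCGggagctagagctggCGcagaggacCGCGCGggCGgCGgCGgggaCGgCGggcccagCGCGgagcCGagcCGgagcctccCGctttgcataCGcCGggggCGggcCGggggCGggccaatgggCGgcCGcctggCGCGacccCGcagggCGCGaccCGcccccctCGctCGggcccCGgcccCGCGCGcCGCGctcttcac
Hoxd11 outer: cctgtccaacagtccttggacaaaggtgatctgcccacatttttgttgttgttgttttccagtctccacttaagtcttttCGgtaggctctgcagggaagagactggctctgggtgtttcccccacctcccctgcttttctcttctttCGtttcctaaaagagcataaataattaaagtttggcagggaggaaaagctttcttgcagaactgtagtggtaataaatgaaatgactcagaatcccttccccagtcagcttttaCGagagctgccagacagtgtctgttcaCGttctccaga
Hoxd11 inner: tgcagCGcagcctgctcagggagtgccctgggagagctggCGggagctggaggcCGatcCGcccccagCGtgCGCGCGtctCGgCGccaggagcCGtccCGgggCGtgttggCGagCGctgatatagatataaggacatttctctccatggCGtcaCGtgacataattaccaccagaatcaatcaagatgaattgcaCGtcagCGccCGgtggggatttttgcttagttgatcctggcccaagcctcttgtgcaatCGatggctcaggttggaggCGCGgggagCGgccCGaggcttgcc

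The clusters also hold microRNA genes, shown here because their hairpins lie among the Hox genes, inside or between the Hox regions. A single mature arm of each is printed, and most of these arms share a seed with another. The seeds of the arms not printed all differ. The mature sequences are from RefSeq, with the seed, bases 2 to 8, in capitals. miR-196a-5p, encoded in HoxB and again in HoxC, and miR-196b-5p of HoxA share the seed AGGUAGU. miR-10a-5p of HoxB and miR-10b-5p of HoxD share the seed ACCCUGU, and miR-615-3p of HoxC has a seed of its own among these.
miR-196a-5p: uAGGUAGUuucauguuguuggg
miR-196b-5p: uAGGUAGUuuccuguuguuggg
miR-10a-5p: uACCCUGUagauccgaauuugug
miR-10b-5p: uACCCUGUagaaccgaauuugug
miR-615-3p: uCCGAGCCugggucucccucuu

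The stretched library held 11803785 counts over all regions and the control library 8820178, and 10 regions with over 10000 counts held 48.9% of the counts in the stretched library and 34.5% in the control library. Counts below are raw, and a fold is stretched over control after scaling over all regions, which multiplies the raw ratio by 1.06. Each fold stands with an exact 95% interval that covers counting error only. A region was called higher or lower when its fold was at least 2 in that direction, its counts summed to at least 20, and its interval excluded 1. Regions of the sorted cell type were open, with 1316 counts in the stretched library and 1139 in the control library at Trp63, the master regulator of stratified epithelium, and 865 stretched and 763 control counts at Krt14, a basal keratin.

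Hox regions were of ordinary depth and size. Their counts summed over both libraries ran from 3 to 355, with a median of 51 against 57 for all regions, and 81 of the 93 reached 20 counts. Their median length was 660 bp, against 656 bp for all regions, and 6 of them (6.45%) reached 2 kb, against 1.92% of all regions. Of the 93 regions, 62 touched the span of a Hox gene, 21 lay within 5 kb of one, and the farthest lay 19340 bp from Hoxb9. Of the 62, 5 sat in overlapping spans and were counted for the gene with the shortest span.

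HoxA, HoxB and HoxC held more regions and counts for their size than protein-coding spans across the genome, whereas HoxD held fewer counts. Those spans held 6.09 regions per 100 kb, regions covered 4.96% of them, and outside the large regions they had 4.03 counts per kb in the stretched library and 3.76 in the control library. HoxA held 26.4 regions per 100 kb over its 98.5 kb (chr6:52162417-52260880), with 20.7% of the bases covered. HoxC, 116 kb on chr15:102921131-103036856, held 19 per 100 kb and was 15.3% covered. HoxB, 174 kb on chr11:96194316-96368254, held 18.4 per 100 kb and was 16.6% covered. HoxD, 96.9 kb on chr2:74668225-74765142, held 8.25 per 100 kb and was 7.29% covered. In counts per kb of cluster, HoxA had 9.13 in the stretched library and 10.8 in the control library, HoxB had 5.11 stretched and 7.97 control, HoxC had 6.70 stretched and 9.87 control, and HoxD had 2.24 in the stretched library and 2.69 in the control library.

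**Figure D1:**
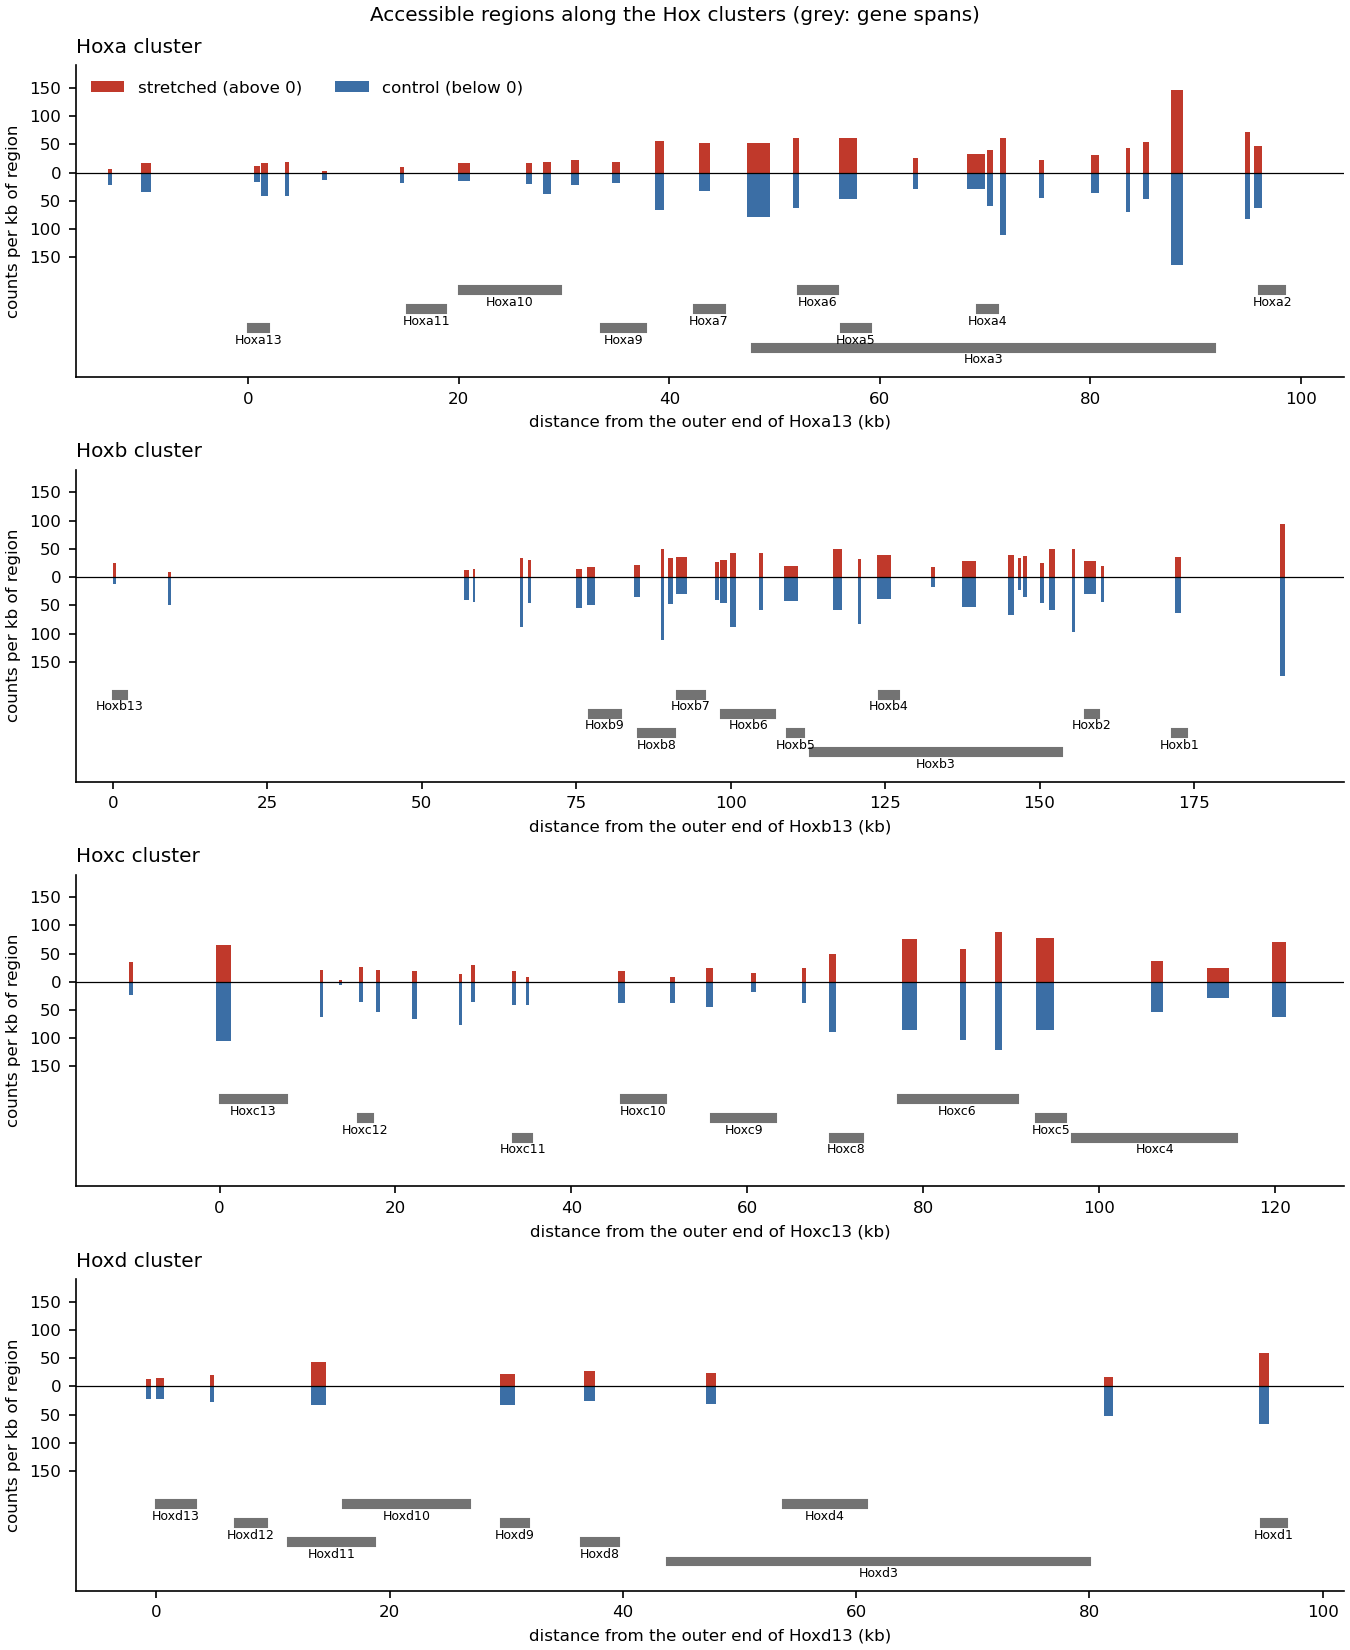
Merged regions along the HoxA, HoxB, HoxC and HoxD clusters, placed by distance in kb from the outer end of the group 13 gene. Bars show raw counts per kb of region, stretched above 0 and control below 0, and grey boxes are gene spans. HoxA had no gap of 10 kb between regions, whereas HoxD had accessible stretches of at most 5.86 kb and a gap of 33.3 kb.

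Regions with gaps of at most 5 kb were joined into accessible stretches, of which HoxA had 7, HoxB 11, HoxC 9 and HoxD 7. The widest lay in HoxA, chr6:52203091-52234510, which ran over 31.4 kb from Hoxa5 to Hoxa10. It held 9 regions with 415 counts in the stretched library and 453 in the control library, a fold of 0.968 (0.845 to 1.11). Beside it a stretch of 25.7 kb covered Hoxa3 and Hoxa4, with 366 counts in the stretched library and 440 in the control library. Over the whole of HoxA, with its narrower stretches included, no gap between neighbouring regions reached 10 kb.

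HoxB had its widest stretch, 26.4 kb on chr11:96278718-96305150, from Hoxb8 to Hoxb5. Its 9 regions held 277 counts in the stretched library and 430 in the control library, a fold of 0.681 (0.583 to 0.794). Between Hoxb13, known from prostate and tail, and the first region nearest Hoxb9 lay gaps of 31.3 kb and 15.9 kb, split by a region over 20 kb from any Hox gene. In HoxC a stretch of 17.3 kb from Hoxc6 to Hoxc5 held 395 counts in the stretched library and 480 in the control library. Its widest stretch, 23.8 kb on chr15:102932513-102956296, ran past Hoxc12 and Hoxc11 with far fewer counts, 62 in the stretched library and 157 in the control library. That fold, 0.417 (0.306 to 0.563), was the lowest of any stretch of 3 or more regions. In HoxD the gaps of 15 kb and 33.3 kb wholly contained Hoxd10 and Hoxd4, and no region was assigned to either, nor to Hoxd12.

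The most accessible sites of HoxA, HoxB and HoxC lay mostly at group 1 to 6 genes. In HoxA a region inside the Hoxa3 span, chr6:52172053-52173196, had 167 counts in the stretched library and 188 in the control library. Hoxa3 takes part in forming the thymus and pharyngeal arches. In HoxC the region at Hoxc5, chr15:103013957-103016039, had 161 counts in the stretched library and 176 in the control library, and it contains the miR-615 hairpin. In HoxB the leading region lay outside the gene row, 14974 bp beyond Hoxb1, at chr11:96383228-96384074, with 79 counts in the stretched library and 148 in the control library. Hoxd1 had the strongest region of HoxD, with 54 counts in the stretched library and 61 in the control library. The exception among the 3 leading regions of these clusters was at the group 13 gene Hoxc13. The region at its outer end, chr15:102920710-102922376, had 110 counts in the stretched library and 175 in the control library, and peaks were listed there in both libraries.

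Regions grouped by paralogue number were also set side by side, in classes commonly used for these genes but applied here after the values were seen. The anterior genes, groups 1 to 3, had 45.7 counts per kb of region in the stretched library and 64.2 in the control library. The central genes, groups 4 to 8, had 44.9 in the stretched library and 53.3 in the control library. The posterior genes, groups 9 to 13, had 23.5 in the stretched library and 41.3 in the control library. Peaks were listed in both libraries for 12 of 27 anterior, 20 of 25 central and 5 of 41 posterior regions. Summed over the clusters, posterior genes had the fewest counts per kb in both libraries, and 12 of their 41 regions did not reach 20 counts. This did not hold in each cluster, since in the control library posterior genes had 50.7 counts per kb in HoxB and 29.7 in HoxD, above the 45.8 and 26.0 of the central genes there. The central class of HoxD was 1 region with 26 control counts, so the order in HoxD rests on few counts.

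Hox regions as a whole had fewer counts in the stretched library. Their 93 regions summed to 2998 counts in the stretched library and 4135 in the control library, a fold of 0.766 (0.731 to 0.803). Of the 81 regions with 20 counts, 0 were higher and 12 were lower (14.8%), where 7.22% of all 94857 such regions were higher and 8.71% were lower. The fold was below 1 for 75 of the 93 regions, and the median log2 fold was -0.51, against -0.01 for all regions. The median region had 19 counts in the stretched library and 31 in the control library, against 27 stretched and 30 control counts over all regions.

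**Figure D2:**
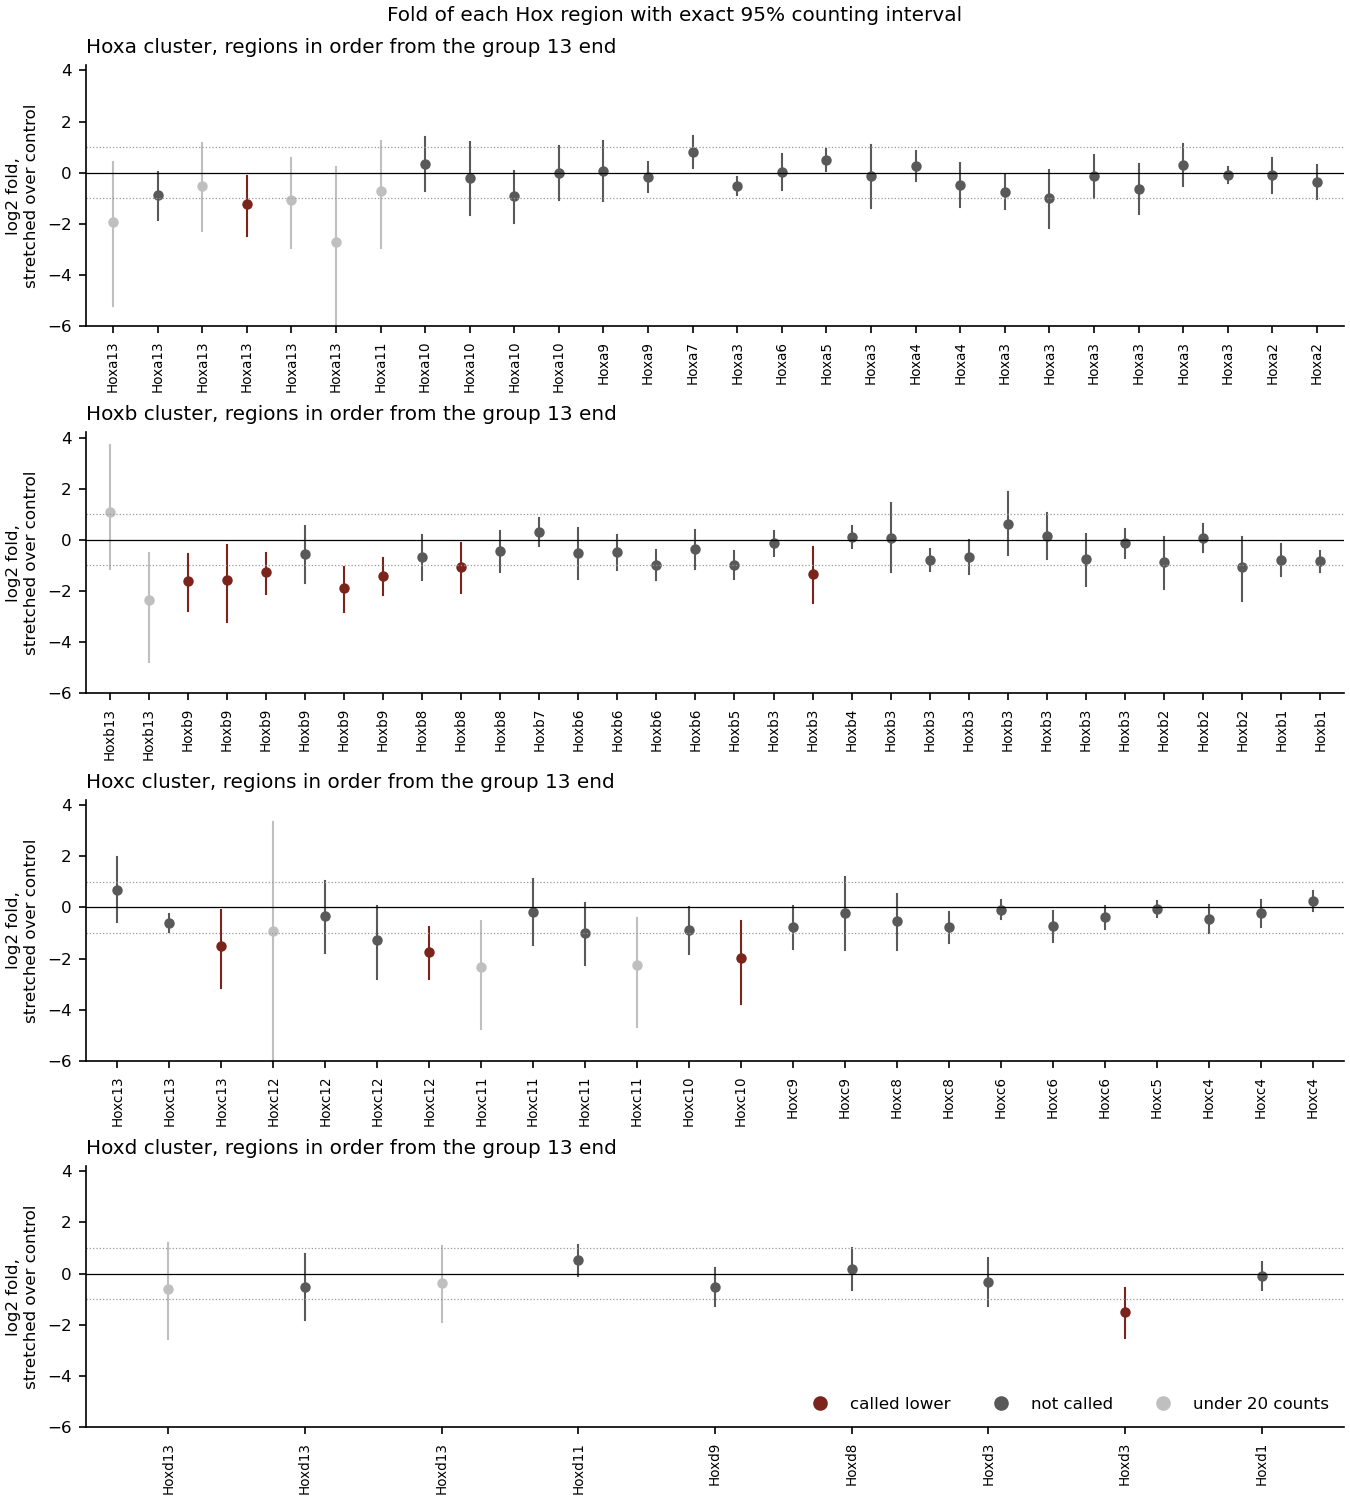
Log2 fold, stretched over control, of each Hox region with its exact 95% counting interval, in order from the group 13 end of each cluster, with long intervals cut at the lower edge. Dark red points are the 12 regions called lower, 5 of them nearest Hoxb9; pale points have under 20 counts, and the dotted lines mark a fold of 2 in each direction.

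The difference was spread unevenly over the clusters. HoxB had 957 counts in the stretched library and 1517 in the control library, a fold of 0.667 (0.614 to 0.723), and held 7 of the 12 lower regions. HoxC had 902 counts in the stretched library and 1251 in the control library, a fold of 0.762 (0.699 to 0.831), with 3 lower regions. HoxA had 917 counts in the stretched library and 1098 in the control library, a fold of 0.883 (0.808 to 0.964), with 1 lower region. The intervals of HoxA and HoxB did not overlap. HoxD, with 222 counts in the stretched library and 269 in the control library, had a fold of 0.872 (0.727 to 1.05), an interval that includes 1.

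By paralogue class the folds were 0.753 (0.695 to 0.815) for anterior, 0.890 (0.827 to 0.958) for central and 0.601 (0.543 to 0.665) for posterior genes. Posterior genes held 9 of the 12 lower regions. The posterior class was not low in every cluster, since its fold was 0.384 (0.301 to 0.487) in HoxB, 0.568 (0.483 to 0.666) in HoxC, 0.720 (0.588 to 0.882) in HoxA and 0.967 (0.738 to 1.27) in HoxD. The central class of HoxA had 273 counts in the stretched library and 229 in the control library, a fold of 1.26 (1.05 to 1.51) that turned to 0.891 with scaling by total counts, which lowers every fold alike.

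Hoxb9, a posterior gene that shapes the thoracic skeleton and mammary gland together with its paralogues, held the largest share of the lower regions. Its 6 regions summed to 87 counts in the stretched library and 245 in the control library, a fold of 0.375 (0.290 to 0.481), and 5 of the 6 were called lower. They ran from the gene to 19340 bp outside it, and 4 overlapped the lncRNA gene Gm53. The region with the lowest fold of these, chr11:96269228-96270318, had 15 counts in the stretched library and 59 in the control library, a fold of 0.269 (0.142 to 0.480). The region that reaches into the gene, chr11:96271068-96272366, had 23 counts in the stretched library and 64 in the control library. The hairpin of miR-196a lay 3190 bp from the nearest of these regions.

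The posterior HoxC genes, known from hindlimb patterning, were low in the same direction one after another. Hoxc10 had 22 counts in the stretched library and 54 in the control library, a fold of 0.431 (0.250 to 0.719). Hoxc11 had 27 counts in the stretched library and 65 in the control library, a fold of 0.439 (0.269 to 0.697). Hoxc12 had 29 counts in the stretched library and 74 in the control library, a fold of 0.414 (0.260 to 0.644). All 10 of their regions had folds below 1, and 2 were called lower. These were chr15:102942977-102943609 near Hoxc12, with 12 counts in the stretched library and 42 in the control library, and chr15:102972348-102972903 near Hoxc10, with 5 stretched and 21 control counts. This Hoxc10 region lay 447 bp from the hairpin of the other miR-196a gene.

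Hoxc13 differed from its neighbours in level more than in direction. Its 3 regions had 131 counts in the stretched library and 203 in the control library, a fold of 0.682 (0.543 to 0.854). The authors' peak caller gave its outer region a summit pileup of 57 fragments in the stretched library and 70 in the control library, and a fold over local background of 9.89 in the stretched and 8.99 in the control library. A small region 3699 bp past the gene was called lower, with 6 counts in the stretched library and 18 in the control library.

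Among group 13 genes, Hoxa13, which patterns digits and the genital tract, had 40 counts in the stretched library and 91 in the control library over 6 regions, a fold of 0.464 (0.312 to 0.681). One of its regions, chr6:52259031-52259634 inside the gene, was called lower, with 10 counts in the stretched library and 25 in the control library. Hoxd13, the digit gene of HoxD, had 23 counts in the stretched library and 34 in the control library. Hoxb13 had 9 counts in the stretched library and 19 in the control library over 2 regions, both under 20 counts. Hoxa11, a gene of the forearm, kidney and uterus, had a single region with 4 counts in the stretched library and 7 in the control library.

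At the anterior end, Hoxb1, a hindbrain gene, had 114 counts in the stretched library and 211 in the control library over 2 regions, a fold of 0.571 (0.451 to 0.720), and neither was called. Hoxb3 had 300 counts in the stretched library and 420 in the control library over 9 regions, a fold of 0.755 (0.649 to 0.877). One region inside it, chr11:96314971-96315321, was called lower, with 11 counts in the stretched library and 29 in the control library. Hoxa3 had 406 counts in the stretched library and 536 in the control library over 8 regions, a fold of 0.800 (0.702 to 0.912), and 0 were called. Hoxd3 had 32 counts in the stretched library and 64 in the control library, and the region 1208 bp outside it was called lower, with 13 stretched and 39 control counts. Hoxa2, which patterns the second pharyngeal arch, had 73 counts in the stretched library and 91 in the control library, and Hoxb2 had 81 stretched and 105 control counts. The intervals of Hoxa2 (0.614 to 1.17) and Hoxb2 (0.602 to 1.10) include 1.

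Genes with an interval above 1 numbered 2, both central genes of HoxA, and with scaling by total counts there were 0. Hoxa7 had 59 counts in the stretched library and 36 in the control library in a single region, chr6:52216966-52218075, a fold of 1.73 (1.13 to 2.70). Hoxa5, known from lung and axial patterning, had 105 counts in the stretched library and 79 in the control library in the region that covers 256 bases of its promoter window, a fold of 1.40 (1.04 to 1.91) that turned to 0.993 with scaling by total counts. Neither reached a fold of 2. Hoxd11 had 57 counts in the stretched library and 42 in the control library, a fold of 1.43 (0.946 to 2.19), and Hoxb7 had 63 stretched and 54 control counts, a fold of 1.23 (0.843 to 1.81). Intervals were below 1 for 15 genes and included 1 for the other 18 genes with a region. The matching shares over all protein-coding genes were not computed. Single regions with enough counts for a call were compared at any fold instead. Their intervals were below 1 for 23 of 81 Hox regions, against 15.6% of all such regions. They were above 1 for 2 of the 81, against 18.6% of all such regions.

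The group 4 to 6 genes of HoxB and HoxC differed among themselves. Hoxb4, known as a regulator of blood stem cells, had 89 counts in the stretched library and 87 in the control library, a fold of 1.08 (0.795 to 1.47). Its neighbour Hoxb5 had 43 counts in the stretched library and 90 in the control library, a fold of 0.505 (0.343 to 0.734). Hoxc4 had 217 counts in the stretched library and 238 in the control library, and Hoxc5 had 161 stretched and 176 control counts, with folds of 0.963 (0.798 to 1.16) and 0.967 (0.776 to 1.20). Hoxc6 had 234 counts in the stretched library and 304 in the control library, a fold of 0.813 (0.683 to 0.968). In group 8, Hoxb8 had 58 counts in the stretched library and 99 in the control library, and 1 of its 3 regions was called lower with 14 stretched and 31 control counts. Hoxc8, a gene of the thoracic axis, had 52 counts in the stretched library and 90 in the control library, and Hoxd8 had 28 stretched and 26 control counts.

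The remaining genes with regions lay between these. Hoxb6 had 113 counts in the stretched library and 187 in the control library over 4 regions, a fold of 0.639 (0.501 to 0.811), with 0 called. Hoxa4 had 74 stretched and 78 control counts and Hoxa6 had 35 stretched and 36 control counts, the genes of HoxA with the folds closest to 1. At the start of the posterior class, Hoxa9 had 62 counts in the stretched library and 71 in the control library, and Hoxa10, a gene of the uterus and hindlimb, had 59 stretched and 73 control counts. Hoxc9 had 29 stretched and 47 control counts, and Hoxd9 had 28 stretched and 42 control counts. The intervals of Hoxa4, Hoxa6, Hoxa9, Hoxa10, Hoxc9 and Hoxd9 all include 1.

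**Figure D3:**
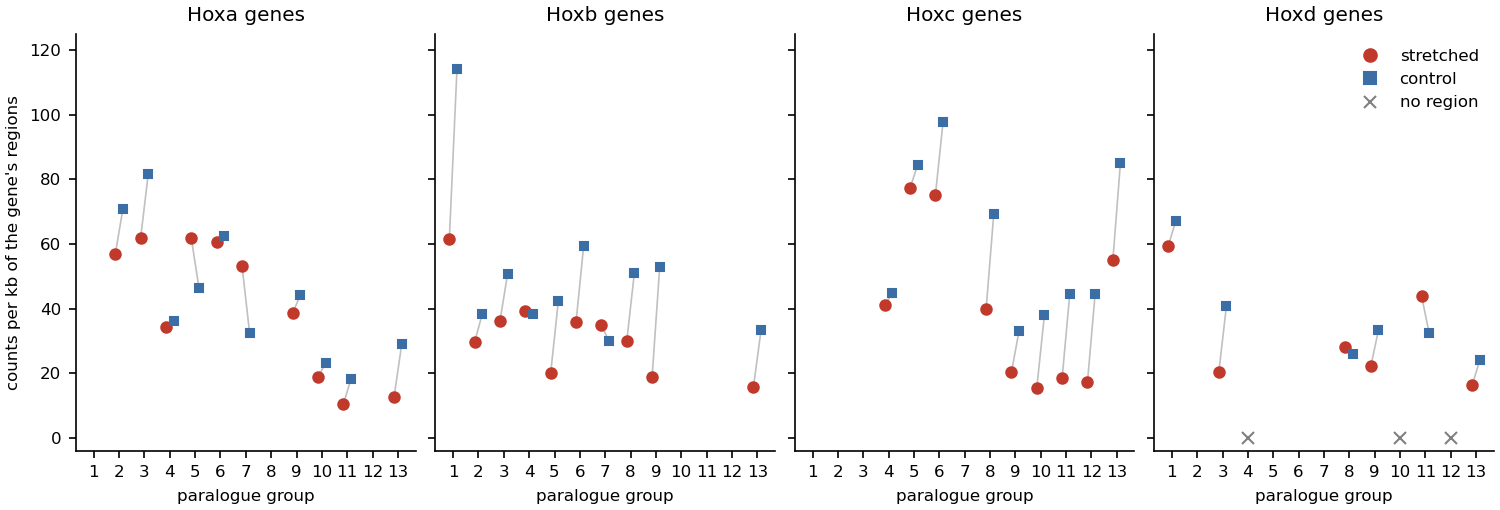
Raw counts per kb of each gene's regions by paralogue group in HoxA, HoxB, HoxC and HoxD, stretched (circles) left of control (squares), with crosses for genes without a region. Control points stood above stretched points at most genes, and Hoxa5, Hoxa7, Hoxb4, Hoxb7, Hoxd8 and Hoxd11 were the genes with the stretched point above.

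Most of the lower regions, 8 of 12, were outside the spans of protein-coding genes. Several of these lay beside Hoxb9, so they share 1 locus, and some overlapped the lncRNA genes Gm53 and Haglr. Of the 22 Hox regions outside spans with 20 counts, 8 were called lower (36.4%), against 9.41% of all regions outside protein-coding spans and within 20 kb of one. Of the 59 inside spans 4 were called lower (6.78%), against 8.42% of all regions inside such spans. Of the 11 Hox regions on a promoter window 0 were called, where 2.30% of all regions on a window were lower and 9.71% were higher. Each of the 12 lower regions had under 100 counts. In the authors' peak lists, 10 of the 12 lower regions had a peak in the control library and none in the stretched library, and the other 2 had one in both. Peaks and counts come from the same libraries, so regions picked for few stretched counts tend to lack a stretched peak. The peak split is therefore no separate support, and its share over all lower regions was not computed.

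Peaks over all Hox regions were divided likewise. Both libraries had a listed peak at 37 Hox regions (39.8%), the stretched library alone at 7 (7.53%), the control library alone at 18 (19.4%) and neither at 31 (33.3%). Over all regions the shares were 52.3% for both, 13.9% for stretched alone, 9.12% for control alone and 24.8% for neither. HoxB contributed 11 of the 18 regions with a peak in the control library alone. The median enrichment over local background, as the authors' peak caller gave it, was 3.91 for Hox summits in the stretched library and 3.29 in the control library, against 5.22 in the stretched and 4.46 in the control library for all summits of the same lists. Fragments left after filtering numbered 23876613 in the stretched library and 31944854 in the control library, and the part of depth in peak presence was not tested.

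Count and gene density moved with the fold over the whole series, and Hox regions were read beside both. Among regions of 20 to 49 counts, 7 of 33 Hox regions were lower, against 13.4% of all such regions, and 0 were higher, against 8.78%. Among regions of 50 to 99 counts, 5 of 24 were lower, against 10.5%, and 0 were higher, against 6.57%. Among regions of 100 or more counts 0 of 24 were called, where 2.87% of all were lower and 6.16% higher, and the median log2 fold was -0.15 for Hox and 0.13 for all regions. Hox regions had from 12 to 28 protein-coding genes centred within 500 kb on either side, with a median of 23, against a median of 9 for all regions. In that range of gene density 10.9% of all regions were lower and 4.91% were higher, with a median log2 fold of -0.12. The part of count and gene density in the Hox difference was not tested further.

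**Figure D4:**
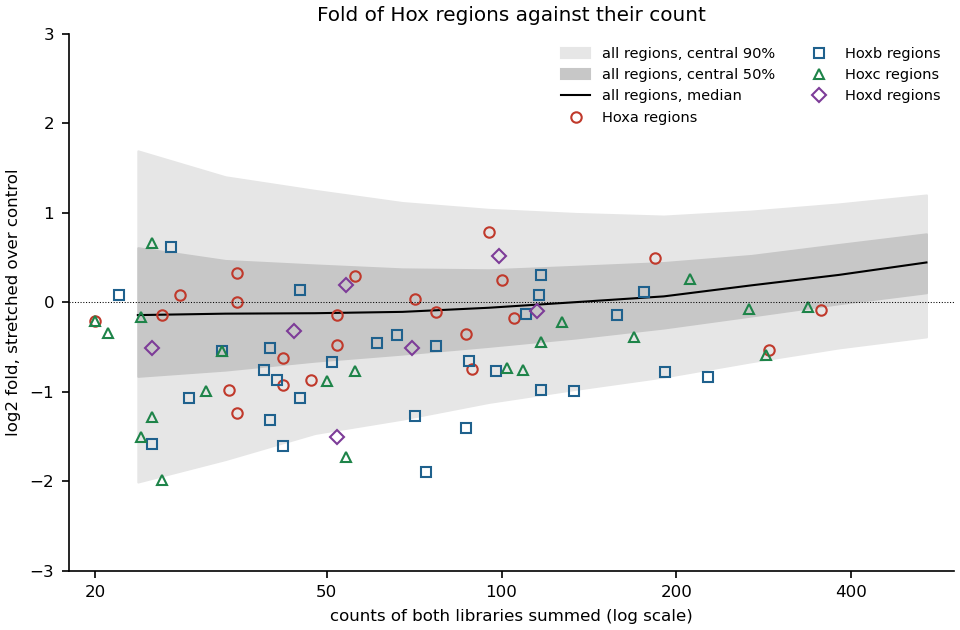
Log2 fold, stretched over control, of the Hox regions with at least 20 counts against their counts summed over both libraries (log scale). Grey bands hold the central 90% and 50% of all regions and the line is their median. Hox regions of every cluster lay mainly under the line, with a median log2 fold of -0.54 at 20 to 49 counts and -0.15 at 100 counts or more.

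Promoter windows were matched for 22 of the 38 genes, 24 windows in all. A region overlapped 11 of them (45.8%), against 61.7% of the 21263 windows of all genes. Hox windows with a region had a median of 20 CG dinucleotides and those without had 13, against 21 and 3 over all genes. The windows without a region thus included CG-rich ones, of which the Hoxa13 window printed above held the most, and Hoxd10 held 22 and Hoxd3 20. The Hoxd1 window, with 29, lay under the strongest region of HoxD.

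Short motifs in those windows were counted on both strands as descriptions. The PBX-HOX pattern TGATNNAT was in 4 of 24 Hox windows (16.7%), against 7.45% of all windows, and 1 of the 4 was the inner Hoxd11 window. The homeodomain core TAATTA was in 2 (8.33%, against 4.53%), which were both Hoxd11 windows. The AP-1 pattern TGANTCA was in 1 (4.17%, against 6.99%), the outer Hoxd11 window. The pattern TATAAA was in 4 (16.7%, against 12.6%), and the core of the CTCF motif was in 0, against 2.34% of all windows.

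Noncoding genes of the clusters differed in whether a region touched them. The hairpin of miR-196b lay inside a region near Hoxa10 with 17 counts in the stretched library and 18 in the control library. The hairpin of miR-10a lay 715 bp from the Hoxb4 region, and that of miR-10b lay 9862 bp from any region, in the HoxD gap that holds Hoxd4. Hotair, a lncRNA gene between Hoxc12 and Hoxc11 studied in humans for its positional expression in fibroblasts, held no region, the nearest being 378 bp away. Hottip, at the outer end of Hoxa13, held none either, the nearest being 2484 bp away. Hoxb5os was touched by 5 regions with 156 counts in the stretched library and 277 in the control library, Hoxaas3 by 3 with 254 stretched and 289 control counts, and Haglr by 2 with 67 stretched and 100 control counts. Regions shared by a noncoding gene and a Hox gene cannot be assigned to either.

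The genes of HOX partners had about equal counts in the libraries. The 9 cofactor genes held 130 regions with 6421 counts in the stretched library and 6081 in the control library, a fold of 1.12 (1.08 to 1.16) that turned to 0.789 with scaling by total counts. Of 112 regions with 20 counts 5 were higher and 9 lower, where 7.22% of all regions were higher and 8.71% lower. Meis2 had 1294 counts in the stretched library and 932 in the control library, a fold of 1.47 (1.35 to 1.60), and Meis1 had 1019 stretched and 827 control counts, a fold of 1.30 (1.19 to 1.43) that turned to 0.921 with that scaling. The smaller Meis3 had 19 counts in the stretched library and 39 in the control library, with 1 lower region.

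Regulators of Hox chromatin divided by gene. The 23 Polycomb and Trithorax genes had 7689 counts in the stretched library and 8083 in the control library, a fold of 1.01 (0.974 to 1.04), and of 96 regions with 20 counts 3 were higher and 8 lower, the lower share being near the 8.71% of all regions. Intervals were above 1 for 7 of these genes and below 1 for 7. Bmi1, a subunit of Polycomb repressive complex 1, had 107 counts in the stretched library and 55 in the control library in a single region, which was called higher, with a fold of 2.06 (1.47 to 2.90) that was 1.45 with scaling by total counts. Phc1, of the same complex, had 384 counts in the stretched library and 194 in the control library, and 1 of its 2 regions was higher. Kmt2a, the Trithorax methyltransferase that keeps Hox genes active, had 271 counts in the stretched library and 420 in the control library, a fold of 0.682 (0.583 to 0.796), and 3 of its regions were lower. Jarid2, a partner of Polycomb repressive complex 2, had 1035 counts in the stretched library and 1305 in the control library over 21 regions, 1 of them lower.

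The genes beside the clusters were divided. The 17 genes had 4090 counts in the stretched library and 4385 in the control library, a fold of 0.986 (0.944 to 1.03), and 14 of 83 regions were lower and 2 were higher, where 8.71% and 7.22% of all regions were. Intervals were below 1 for 4 of these genes and above 1 for 5. Skap1, beside Hoxb1, had 133 counts in the stretched library and 315 in the control library, a fold of 0.446 (0.362 to 0.548), and all 12 of its regions had folds below 1. Ttll6 and Calcoco2, on the Hoxb13 side, had 96 and 76 counts in the stretched library and 166 and 153 in the control library, with 1 lower region each. Atp5g1, in the same neighbourhood, had 289 counts in the stretched library and 282 in the control library, a fold of 1.08 (0.916 to 1.28). Beside HoxD, Mtx2 had 160 counts in the stretched library and 104 in the control library, a fold of 1.63 (1.26 to 2.1), and Lnpk had 424 stretched and 335 control counts, a fold of 1.34 (1.16 to 1.55). Jazf1, near HoxA, had 493 counts in the stretched library and 568 in the control library, with 4 regions lower and 1 higher, and Tax1bp1 had 298 stretched and 232 control counts, with 1 region higher.

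Other positional transcription factor genes had 4172 counts in the stretched library and 4429 in the control library, a fold of 0.995 (0.954 to 1.04). Of their 73 regions 2 were higher and 11 lower, where 7.22% of all regions were higher and 8.71% lower, and intervals were above 1 for 2 genes and below 1 for 7. Lmx1b, the dorsal limb determinant, had 489 counts in the stretched library and 826 in the control library, a fold of 0.626 (0.558 to 0.700), with 4 lower regions. Tbx5, the forelimb gene, had 50 counts in the stretched library and 104 in the control library, with 2 lower. Irx5 had 988 counts in the stretched library and 721 in the control library, a fold of 1.45 (1.31 to 1.60), with 1 region higher. Homeobox and related genes of epithelia had 2 higher and 5 lower of 79 regions, both shares under those of all regions. Alx4 had 59 counts in the stretched library and 145 in the control library, with 2 lower regions, and Gata3 had 882 stretched and 774 control counts, with 1 higher region.

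**Figure D5:**
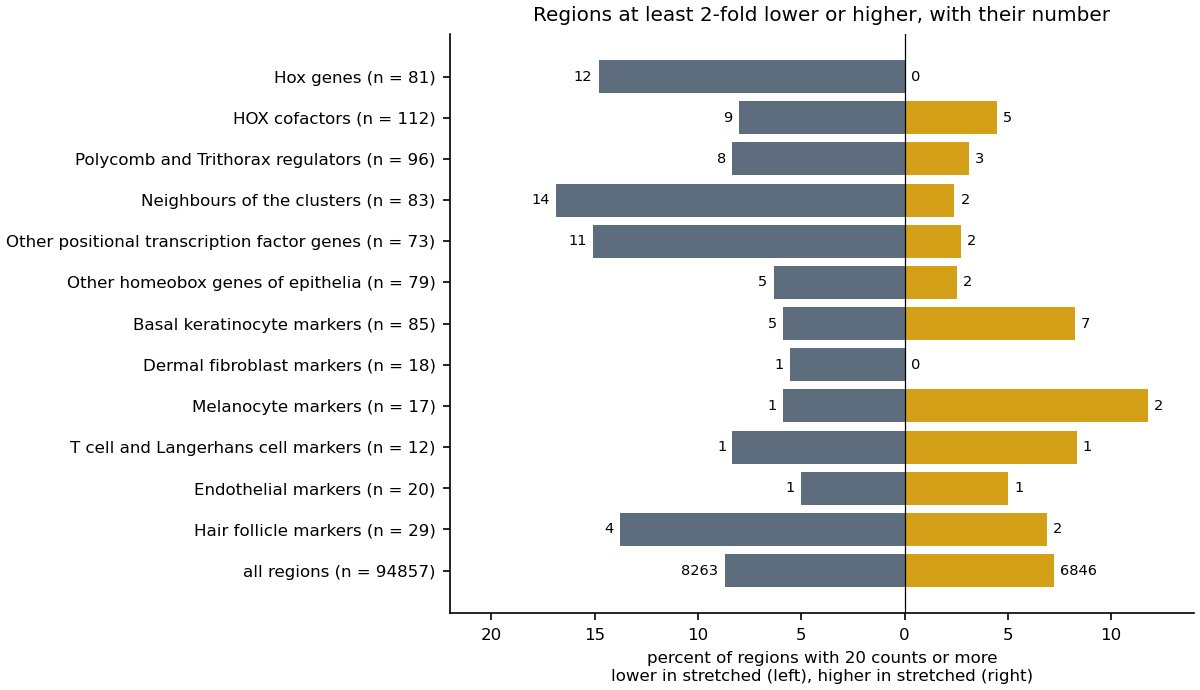
Percent of regions with at least 20 counts that were called lower (left) or higher (right) in the stretched library for the Hox genes, other gene lists and all regions, with the number called at the end of each bar and the number of regions in brackets. Hox genes had 12 lower and 0 higher of 81, and neighbours of the clusters 14 lower and 2 higher of 83.

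Markers of cells the sort should have left out were set beside the Hox difference, since fibroblasts also use Hox genes. Of 8 dermal fibroblast genes 7 had a region, Lum having none, and their 22 regions summed to 590 counts in the stretched library and 770 in the control library, a fold of 0.810 (0.726 to 0.903). These genes differed in direction, with intervals below 1 for 4 and above 1 for 1. T cell and Langerhans cell genes summed to 250 counts in the stretched library and 304 in the control library, with a region at 4 of 5 genes and none at Cd3d. Endothelial genes summed to 928 counts in the stretched library and 1098 in the control library, melanocyte genes to 1353 stretched and 1219 control counts, and hair follicle genes to 1780 stretched and 2008 control counts. The 7 basal keratinocyte genes summed to 5647 counts in the stretched library and 5579 in the control library, a fold of 1.07 (1.03 to 1.11) that turned to 0.756 with scaling by total counts. The part of other cell types in the Hox difference was not tested.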

How the data were processed

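The stretched and the control ATAC-seq library were assigned to their groups by the treatment label. Tools named in the submitters' processing notes are Bowtie2 (2.2.6), Picard, SAMtools, HTSeq and MACS2 (2.1.0.20151222), with GRCm38 as the build. The authors deposited raw counts per library over 109257 merged regions that both libraries share. The sources used here do not give what was counted, whether duplicates were removed, how Tn5 shifts were treated or how regions were merged. Per the file headers, the authors called peaks with MACS2 on each library alone at a q cutoff of 0.05. The deposited pileup is a signal in fragments at the summit, the deposited fold enrichment is a ratio over local background, and p-values and q-values are deposited as -log10 values of the same caller.

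TMM factors over all regions were computed with edgeR 4.0.16 in R 4.3.3, the rule for calls was tested on simulated counts, and a count of 0 was set to 3. Intervals are exact Clopper-Pearson intervals of the stretched share of the summed count, and since no molecular identifiers were used, counts need not be independent molecules. No test was run, each group having 1 library. The 38 member genes, the other gene lists and the motifs were chosen with earlier results of these data known. Gene spans and biotypes came from a RefSeq table of GRCm38.p6, promoter and microRNA sequences from RefSeq tables of the same build. Exons and UTRs were not used here, and the sequence of regions was not analysed here. Every Hox gene is accounted for; single regions are named where they are called or among the 3 with most counts of their cluster, and genes of other lists where they hold a called region or are among the 3 with most regions, and further noncoding genes, Hoxa7's region, the neighbours Atp5g1, Mtx2 and Lnpk and the marker genes Lum and Cd3d were named after their values were seen. Not every gene this rule names is reported here. Alternatives were 4 other scalings, DESeq2 1.42.0 size factors among them, other limits on counts, fold, distance and gap, and stricter peaks. Other steps ran in Python 3.11.15 with scipy 1.17.1, statsmodels 0.14.6, matplotlib 3.10.9, pandas 2.3.3 and numpy 2.4.6.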

Additional observations from a re-analysis of the deposited data

How the results depend on the processing

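No paired analysis was possible because each condition had 1 library. Scaling by total counts gave a median log2 fold of -1.01 for Hox regions and -0.51 for all regions, and scaling by counts outside the 10 large regions gave -0.65 and -0.15; a scaling shifts both alike, so the distance between them is fixed. With the trend of fold on count removed the medians were -0.41 for Hox regions and -0.01 for all. Under total counts 37 Hox regions were lower, against 12, while the share of all regions called lower was 23.2%, against 8.71%. The folds were 0.624 for HoxA, 0.471 for HoxB, 0.539 for HoxC and 0.617 for HoxD. Intervals were below 1 for 27 genes and above 1 for 0. Hoxa5 then turned to 0.993, the cofactor list to 0.789, the basal keratinocyte list to 0.756 and the melanocyte list to 0.829. Under counts outside the large regions 21 Hox regions and 11.8% of all regions were lower, HoxA was at 0.800, HoxB at 0.605 and HoxC at 0.691, 1 gene had an interval above 1, and the basal keratinocyte list turned to 0.970. With DESeq2 size factors 12 regions were lower, and with the trend of fold on count removed 10. A minimum of 50 counts left 5 lower regions, and a fold limit of 1.5 gave 22 lower and 1 higher. Joining gaps of 2 kb gave 20 stretches in HoxA, 20 in HoxB and 19 in HoxC, and gaps of 10 kb gave 1, 4, 4 and 4 in HoxA, HoxB, HoxC and HoxD. Peaks with a -log10 q of at least 5 stood in both libraries at 23 Hox regions, against 37. None of these settings gave a Hox region called higher at a fold limit of 2. Depth limits the regions under 20 counts, 12 of the 93, where no 2-fold difference was read.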

Other observations

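Cd34, whose protein was used to sort cells out, had 5 regions with 578 counts in the stretched library and 448 in the control library, a fold of 1.36 (1.20 to 1.55). Krt79, a keratin of the upper hair follicle, had 2 lower regions, with 23 and 20 counts in the stretched library and 66 and 52 in the control library. Lgr5 of the same marker list went the other way, with a fold of 1.31 (1.11 to 1.55) and 2 higher regions, while Lhx2 had 2 lower. Scaling by total counts lowers every fold alike and turned the 1.40 of Hoxa5 to 0.993. The smaller folds of Cd34 and Lgr5 thus fall below 1 with that scaling. Of the 29 hair follicle regions with 20 counts, 2 were higher and 4 lower, where 7.22% of all regions were higher and 8.71% lower.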
